A study of Mus musculus with 6 samples.

Results

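Oligodendrocytes wrap central axons in myelin, and the genes of that lineage were read here in mouse cerebral cortex. The set held 33 genes chosen by name, from precursor markers to myelin proteins, and 32 of them were represented by 66 of the 45037 probe sets of the array (Enpp2 is not analysed here). Of these, 30 genes with 55 probe sets were bright enough to be tested, that is, they had a mean log2 signal over the middle value of the array. The study hybridised total RNA to 6 arrays, 3 with a wild type label and 3 with the label Egr1/Egr3 double knockout, the latter called knockout-labelled here. The labels used here gave no strain, age, sex or allele design. They also did not say that the arrays came from separate animals. The p-values thus speak of spread among the arrays alone, which may be technical save where the sex of the RNA differed, as read below. The title of double knockout replicate 1 named no genotype, and its group came from its description. All values are the deposited signal in intensity units, or differences on the log2(signal + 16) scale, double knockout label minus wild type.

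Oligodendrocyte precursors carry the growth factor receptor Pdgfra and the proteoglycan Cspg4. They divide, and some of them pass through a short premyelinating state, marked by Gpr17, Enpp6 and Bcas1, before they make myelin. Olig1, Olig2, Sox10 and Sox8 are transcription factors of the lineage, and Myrf and Nkx6-2 are needed late, when the myelin genes are switched on. Mature cells express membrane proteins that compact the sheath, adhesion and cytoskeletal proteins of its inner layers, and enzymes that make its glycolipids. In the cortex most of these cells lie in the deep layers and in the white matter beneath. In tissue RNA, fewer oligodendrocytes and less RNA per oligodendrocyte cannot be told apart. Egr1 and Egr3 are zinc finger transcription factors that neurons induce with activity.

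The targeted genes were read first. The brighter Egr3 probe set gave 1189, 2670 and 924 in wild type replicates 1, 2 and 3 and 339, 370 and 507 on the knockout-labelled arrays. Egr1 gave 1247, 2054 and 1430 against 2116, 2647 and 2657. Egr1 thus went against the label, so the group is called by its label throughout and each direction below is that of the label. Double knockout replicate 2 carried female RNA (Xist 3140, at most 42.5 on the others), so it did not share an animal with the other arrays of its label. In wild type replicate 1 the spiked controls read 0.421 of the other arrays. Choroid plexus genes stood out in wild type replicate 3. Of the markers of other cells, all 12 neuron and all 12 astrocyte markers were above the filter. Of 6 Schwann cell and peripheral myelin markers 4 had a probe set and 1 (Egr2) was bright enough to test. Egr2 is of the same gene family as the targeted genes, so its value is not read as one of Schwann cells.

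The promoters of 3 members are shown. Gal3st1 and Nkx6-2 were the members whose promoter window held a match to an Egr motif. Qdpr was chosen by its values, as it had the probe set with the largest log2 difference (-0.75) among members with a window. An action of Egr1 or Egr3 on these genes was not tested. The window of Qdpr held none. The motif was searched as GCGTGGGCG and GCGGGGGCG on both strands in RefSeq windows of GRCm38.p6 that run from 250 bases before to 50 bases after a start. Matches are in capitals, and each sequence is the 250 bases before the start, on the strand of the gene. The Gal3st1 stretch is chr11:3983386-3983635 on the plus strand, Nkx6-2 is chr7:139582798-139583047 on the minus strand and Qdpr is chr5:45450230-45450479 on the minus strand.
Gal3st1: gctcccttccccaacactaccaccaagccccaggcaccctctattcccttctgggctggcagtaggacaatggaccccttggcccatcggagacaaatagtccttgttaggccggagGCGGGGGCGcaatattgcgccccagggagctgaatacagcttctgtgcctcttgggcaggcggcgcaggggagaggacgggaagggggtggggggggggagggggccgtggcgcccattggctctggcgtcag
Nkx6-2: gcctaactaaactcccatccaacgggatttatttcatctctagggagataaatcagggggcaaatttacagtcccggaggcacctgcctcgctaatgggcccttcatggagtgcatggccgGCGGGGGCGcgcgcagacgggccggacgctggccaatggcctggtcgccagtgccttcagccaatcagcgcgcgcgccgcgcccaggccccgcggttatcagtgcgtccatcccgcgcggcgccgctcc
Qdpr: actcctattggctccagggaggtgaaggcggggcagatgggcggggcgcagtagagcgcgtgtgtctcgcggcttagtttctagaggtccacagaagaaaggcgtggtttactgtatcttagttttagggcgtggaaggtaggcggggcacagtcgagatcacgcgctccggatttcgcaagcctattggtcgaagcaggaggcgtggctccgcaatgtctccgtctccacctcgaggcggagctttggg
The match in Gal3st1 ran from base -133 to -125 before the start shown, and that in Nkx6-2 from -129 to -121. Of 24 members with a window 2 held a match (8.33%), against 1063 of 27025 genes (3.93%). A match is a description of letters and not a site. Gal3st1, the sulfotransferase that makes sulfatide, read 201, 150 and 141 in wild type and 179, 162 and 163 on the knockout-labelled arrays, which overlapped. Nkx6-2 was below the filter, at 17.1 to 39.1 and 25.4 to 41.3. Values of both genes with a match overlapped between the groups, but only Gal3st1 was bright enough to test. The stretch before another Gal3st1 start, chr11:3989683-3989932, held no match.

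No member passed the test of the groups. At the brightest tested probe set, 0 of 30 members had a limma adjusted p under 0.05, where 1.02% of all 22518 tested probe sets did, 0.426% as higher and 0.591% as lower. Without adjustment 7 of the 30 had a limma p under 0.05, against 16.6% of all tested probe sets. The signals of the groups did not overlap for 3 of 30 members (Mbp and Cnp higher, Car2 lower), against 22.3% of all tested probe sets, 11.5% as higher and 10.7% as lower. The median log2 difference over the 30 members was 0.05, with 17 above 0 and 13 below, beside 0.01 over all tested probe sets.

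**Figure D1:**
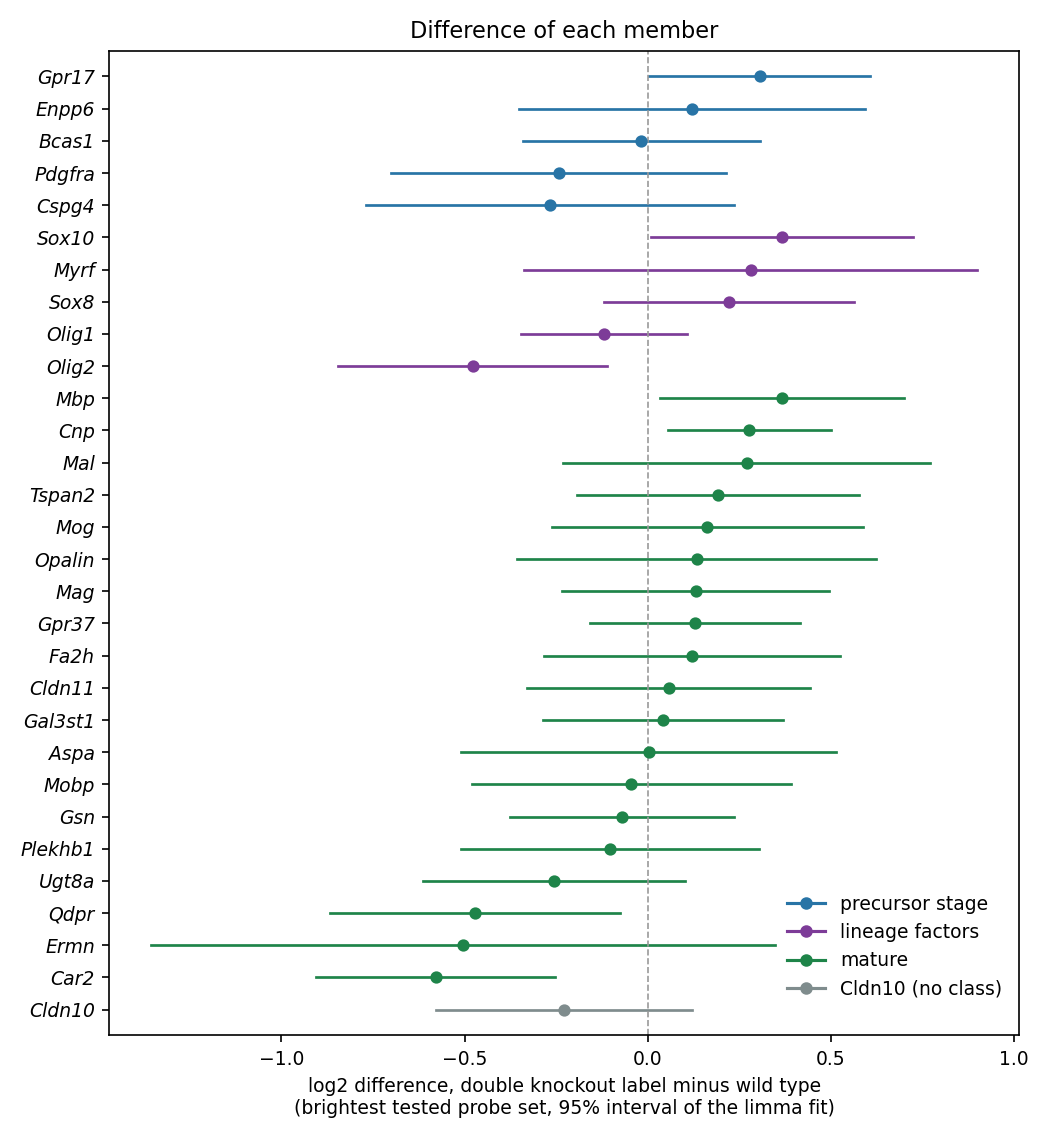
Log2 difference (double knockout label minus wild type) of the 30 tested members at their brightest tested probe set, with the 95% interval of the limma fit, ordered within precursor stage, lineage factor and mature genes. Points run from -0.58 (Car2) to 0.37 (Sox10, Mbp), and 23 of the 30 intervals cross 0.

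Among the precursor genes neither differed beyond its spread. Pdgfra, the receptor that drives precursor division, read 489, 337 and 625 in wild type and 339, 483 and 374 on the knockout-labelled arrays (log2 difference -0.24, 95% interval -0.70 to 0.21; adjusted p = 0.599 in limma). Wild type replicate 2 was the lowest of the 6 arrays, so the groups overlapped. Cspg4, the NG2 proteoglycan, was dim, at 63.0, 65.7 and 84.9 against 34.5, 65.4 and 75.05. Double knockout replicate 1 was the lowest of the 6 arrays on this and on its other tested probe set, which read 60.4, 42.0 and 40.2 against 39.2, 61.5 and 51.7. The log2 differences were -0.27 and 0.07, so the sign differed between the probe sets.

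Gpr17, a receptor of the premyelinating state, was the precursor stage gene with the smallest p. It read 528, 411 and 366 in wild type and 513, 573 and 521 on the knockout-labelled arrays (log2 difference 0.31, SE 0.14; adjusted p = 0.296 in limma). Wild type replicate 1 lay within the range of the other group, while the other wild type arrays lay below it. Gpr17 lies within 10 Mb of Egr1, and the part of this position in its value was not tested. Mbp and Cldn10 share a chromosome with Egr1 and Egr3 but lie farther off. Enpp6, a choline phosphodiesterase of newly formed cells, read 53.4 to 61.1 and 40.5 to 81.4, and Bcas1, which marks cells that begin to myelinate, 1188 to 1722 and 1319 to 1628. The groups of both overlapped, with log2 differences of 0.12 and -0.02.

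The lineage factors did not move as a block. Olig2, needed to specify the lineage, read 325, 286 and 241 in wild type and 249, 164 and 190 on the knockout-labelled arrays. The lowest wild type array and the highest array of the other group crossed by a few units, and the difference came to -0.48 on the log2 scale (SE 0.16, adjusted p = 0.196 in limma). Olig1, its neighbour in the genome, read 1615 to 1868 and 1513 to 1720, a difference of -0.12 (SE 0.10, adjusted p = 0.600 in limma).

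Sox10, a factor kept on through the whole lineage, pointed the other way on its brightest probe set, at 296, 200 and 197 against 290, 331 and 274. Wild type replicate 1 lay inside the range of the other group, and the difference came to 0.37 on the log2 scale (SE 0.16, adjusted p = 0.290 in limma). A second, dimmer Sox10 probe set differed by -0.26, so the gene has no settled direction here. Sox8, a relative of Sox10, read 70.1 to 102 against 102 to 106, a difference of 0.22. Myrf, the regulator of myelin genes, read 323, 136 and 151 against 221, 191 and 299, a difference of 0.28 with an interval of -0.34 to 0.90. The median over the 5 tested factors was 0.22, and 0.05 when the probe sets of each gene were averaged.

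The mature genes differed more among arrays of one group than between the groups. Their median log2 difference was 0.06 over 19 tested genes of 21, from -0.58 to 0.37, with 12 above 0 and 7 below. Read as each gene's deviation from its wild type mean, the median over the 19 stood at 0.06, 0.07 and -0.18 in wild type replicates 1, 2 and 3. It stood at 0.29, -0.27 and 0.11 in double knockout replicates 1, 2 and 3. Wild type replicate 3 and double knockout replicate 2 were thus the low arrays, and double knockout replicate 1 the high one.

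This order was shared by most of the genes. Double knockout replicate 2 was the lowest array of its group for 18 of 19 mature genes, the exception being the brightest probe set of Mbp, and for 36.1% of all tested probe sets. Counted by probe set it was the lowest for 36 of 41, and for 5 of the 8 of Mbp. Wild type replicate 3 was the lowest of its group for 14 of 19, and for 33.8% of all tested probe sets. Double knockout replicate 1 was the highest of its group for 14 of 19, against 33.2%. The genes are read on the same arrays and are not independent. Double knockout replicate 2 was also the only array with female RNA, and the part of sex in this order was not tested. The median SD of the mature genes, in log2 units, was 0.20 in wild type and 0.31 on the knockout-labelled arrays, beside 0.17 and 0.14 over all tested probe sets.

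**Figure D2:**
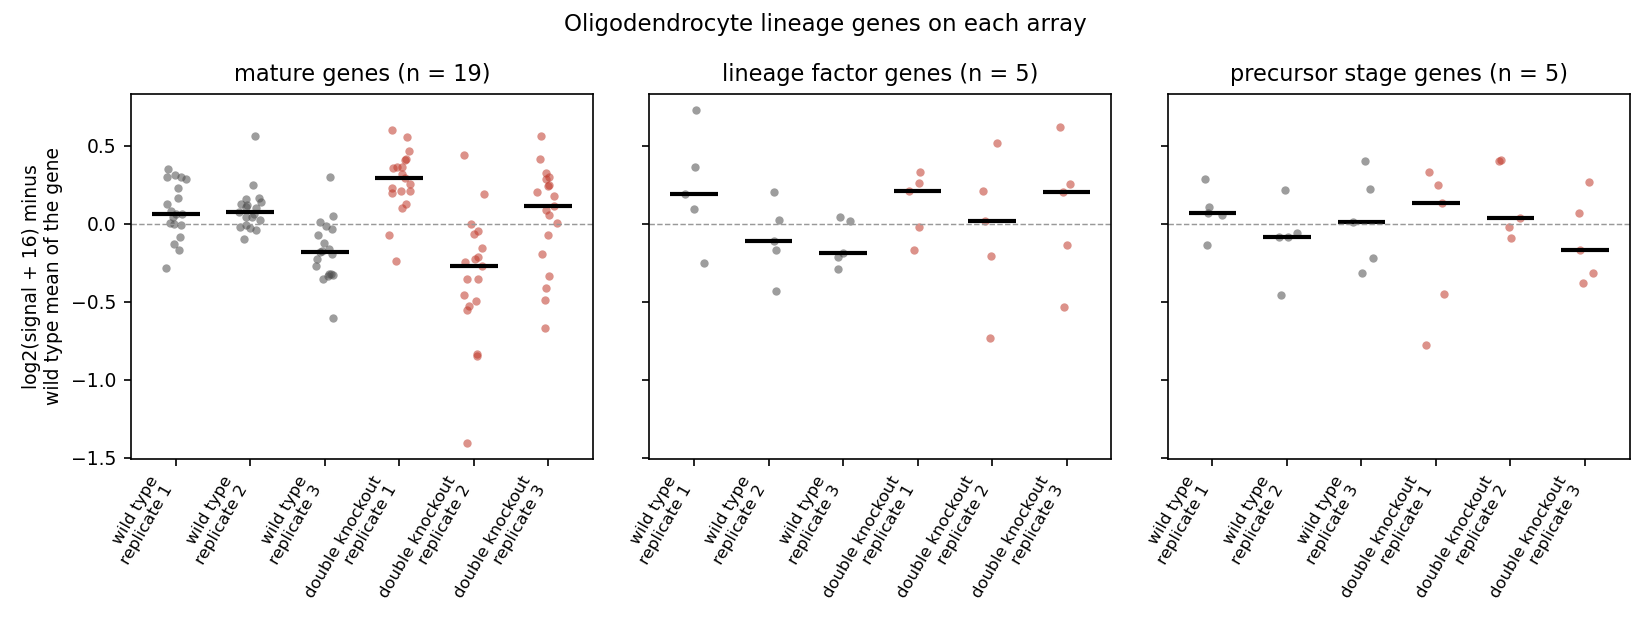
Deviation of each tested member from its wild type mean, in log2(signal + 16) units, on each of the 6 arrays (grey, wild type; red, double knockout label), for 19 mature, 5 lineage factor and 5 precursor stage genes. Each point is a gene and each bar the median; mature genes are low on wild type replicate 3 (-0.18) and double knockout replicate 2 (-0.27) and high on double knockout replicate 1 (0.29).

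Precursor stage genes did not follow that order. Their median deviation was 0.07, -0.08 and 0.01 in wild type replicates 1, 2 and 3 and 0.13, 0.04 and -0.17 in double knockout replicates 1, 2 and 3. Double knockout replicate 2, lowest for nearly all mature genes, was lowest for 0 of the 5 precursor stage genes and highest for 3. The mature median minus the precursor stage median was -0.01, 0.16 and -0.20 in wild type and 0.16, -0.31 and 0.28 on the knockout-labelled arrays. Between the groups the 2 medians differed by 0.07, less than the spread between arrays of a group (pooled SD 0.25).

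Markers of other cells were read on the same arrays. The 5 tested choroid plexus markers of 9 had a summed signal of 225, 479 and 11132 in wild type replicates 1, 2 and 3. In double knockout replicates 1, 2 and 3 they summed to 4874, 160 and 163. Wild type replicate 3 was thus high for these and low for mature genes. Double knockout replicate 1, the array with the highest mature median, had the second highest sum. The 12 microglia markers summed to 4293 to 5179 in wild type and to 3207 to 4204 on the knockout-labelled arrays, lowest in double knockout replicate 2. All 12 differed downward (median -0.46), where 10890 of 22518 tested probe sets did. For 7 of the 12 the groups did not overlap, where 10.7% of all tested probe sets separated downward. The 12 astrocyte markers summed to 17721 to 20957 and 19925 to 20318, and their median deviations lay between -0.03 and 0.05 on the 6 arrays. The 7 tested striatum markers of 10 summed to 1225 to 1743 and 1096 to 1360. The 12 neuron markers summed to 29356 to 35892 and 35533 to 38160. The 10 tested endothelial and mural markers summed to 2063 to 2498 and 1706 to 2035. For the 8 tested meningeal markers the sums were 1301 to 2436 and 1440 to 2160. The part of these other cells in the mature and precursor stage gene values was not tested.

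Of the compact myelin and membrane genes, Mbp, the protein that joins the inner faces of the sheath, read 6152, 7445 and 9228 in wild type. In the arrays labelled double knockout it read 9661, 10160 and 9231. All 3 of these lay above all 3 wild type arrays, the nearest pair by a few units, and the difference came to 0.37 on the log2 scale (SE 0.15, adjusted p = 0.258 in limma). The difference was 0.09 after quantile normalization and 0.22 without wild type replicate 1. On this probe set double knockout replicate 2 was the highest array of its label, whereas on 5 of the 8 Mbp probe sets it was the lowest.

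Mbp had 8 tested probe sets, and 7 of them differed in the same direction. The brightest 6 differed by 0.15 to 0.41. The dimmest, at 274, 144 and 198 against 303, 333 and 309, differed by 0.62 (SE 0.19, limma adjusted p = 0.151), and its groups did not overlap. The next dimmest went the other way, at 243, 395 and 247 against 236, 237 and 241 (log2 -0.26). Its groups did not overlap either, but apart from wild type replicate 2 the arrays lay within a few units of each other. Another bright one, at 5560, 5600 and 6696 against 8270, 7506 and 7922 (log2 0.41, adjusted p = 0.128 in limma) passed only without wild type replicate 3, in a range of 0.0380 to 0.391 over the alternatives, and differed by 0.16 after quantile normalization.

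The other compact myelin genes overlapped between the groups at their brightest probe sets. Mobp, an oligodendrocyte basic protein, read 3323 to 3686 in wild type and 2380 to 4507 on the knockout-labelled arrays, the widest spread falling in the second group. Mal, a raft protein of myelin, read 2056 to 2598 against 1844, 3580 and 3493, with replicate 2 the low one. Cldn11, the tight junction protein of the sheath, read 721 to 1071 and 755 to 1083. Plekhb1, a membrane-bound protein with a pleckstrin homology domain, read 1791 to 2202 and 1356 to 2405.

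Tspan2, a tetraspanin of early myelin, read 992 to 1215 and 936 to 1493 on its brightest probe set (log2 0.19). A second probe set separated the groups, at 537, 677 and 446 against 923, 680 and 930, with double knockout replicate 2 just above wild type replicate 2. Its log2 difference was 0.60 (SE 0.17, limma adjusted p = 0.126). The dimmest differed by 0.20, so the size depended on the probe set.

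Of the surface and cytoskeletal genes, Mog, a protein of the outermost myelin layer, shows the array order plainly. It read 605, 461 and 374 in wild type replicates 1, 2 and 3 and 655, 421 and 536 in double knockout replicates 1, 2 and 3. The groups spanned nearly the same range, and the log2 difference was 0.16 (95% interval -0.26 to 0.59, limma adjusted p = 0.718). Mag, which holds the inner layer to the axon, read 645 to 1034 and 790 to 987, and Opalin, a sialoglycoprotein of mature cells, 288 to 436 and 271 to 525. Both were lowest in wild type replicate 3 and double knockout replicate 2, and differed by 0.13 each.

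Cnp, a phosphodiesterase that keeps cytoplasmic channels of myelin open, did not overlap on its brightest probe set. It read 3948, 3869 and 4102 in wild type and 5097, 4531 and 4842 on the knockout-labelled arrays (log2 difference 0.28, SE 0.10; adjusted p = 0.213 in limma). Its other 2 probe sets gave 0.01 and 0.06 with overlapping groups. On each of these, the lowest arrays of the groups were again wild type replicate 3 and double knockout replicate 2. After quantile normalization the brightest probe set differed by 0.10 (adjusted p = 0.630 in limma).

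Ermn, an actin-binding protein of late myelination, varied most. It read 309, 450 and 192 in wild type and 353, 103 and 234 on the knockout-labelled arrays, lowest in double knockout replicate 2 and highest in wild type replicate 2. The log2 difference of -0.50 had an interval of -1.36 to 0.35, and a second probe set differed by -0.07. It was -0.06 without double knockout replicate 2, -0.22 without wild type replicate 2, and -0.87 and -0.81 without double knockout replicate 1 and wild type replicate 3. Gsn, which severs actin filaments, gave -0.07 to 0.06 on its 5 tested probe sets, and Gpr37, a receptor that restrains differentiation, read 241 to 290 and 256 to 334. Gjc3, a connexin of myelin, was below the filter on both its probe sets and read 21.4 to 33.7 and 29.3 to 44.3 on the brighter.

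Among the enzymes, Car2 had the lowest difference of the 30 members at the brightest probe set, followed by Ermn, Olig2 and Qdpr. Car2, a carbonic anhydrase that oligodendrocytes share with other brain cells, read 1404, 1597 and 1472 in wild type. It read 1262, 828 and 933 on the knockout-labelled arrays, all below the wild type arrays. The log2 difference was -0.58 (SE 0.15, 95% interval -0.91 to -0.25), and did not pass over all probe sets (limma adjusted p = 0.101). It passed only without double knockout replicate 1 (log2 -0.75, limma adjusted p = 0.0373), in a range of 0.0373 to 0.367 over the alternatives.

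Qdpr, which regenerates the biopterin cofactor and is not confined to oligodendrocytes, read 2309, 2894 and 2616 in wild type and 2466, 1434 and 1843 on the knockout-labelled arrays. Double knockout replicate 1 lay inside the wild type range, and the difference came to -0.47 on the log2 scale (SE 0.18, adjusted p = 0.227 in limma). A dimmer probe set separated the groups, at 1014, 1100 and 893 against 766, 448 and 583. Its log2 difference of -0.75 (SE 0.17, limma adjusted p = 0.0743) had the smallest adjusted p of the 55 tested probe sets, and it too passed only without double knockout replicate 1 (adjusted p = 0.0355 in limma, in a range of 0.0355 to 0.347).

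Enzymes of myelin lipids overlapped. Ugt8a, which makes galactosylceramide, read 902 to 1184 and 767 to 1134 (log2 -0.26, 95% interval -0.61 to 0.10). Fa2h, which hydroxylates its fatty acid, read 344 to 537 and 372 to 548 (log2 0.12), and both were lowest in wild type replicate 3 and double knockout replicate 2. Gal3st1 differed by 0.04. Aspa, which frees acetate from N-acetylaspartate, read 121 to 188 and 106 to 213, with a log2 difference of 0.00 and an interval of -0.51 to 0.51. Cldn10, a claudin that astrocytes also express and that was put in no class, read 281 to 428 and 265 to 338 (log2 -0.23).

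**Figure D3:**
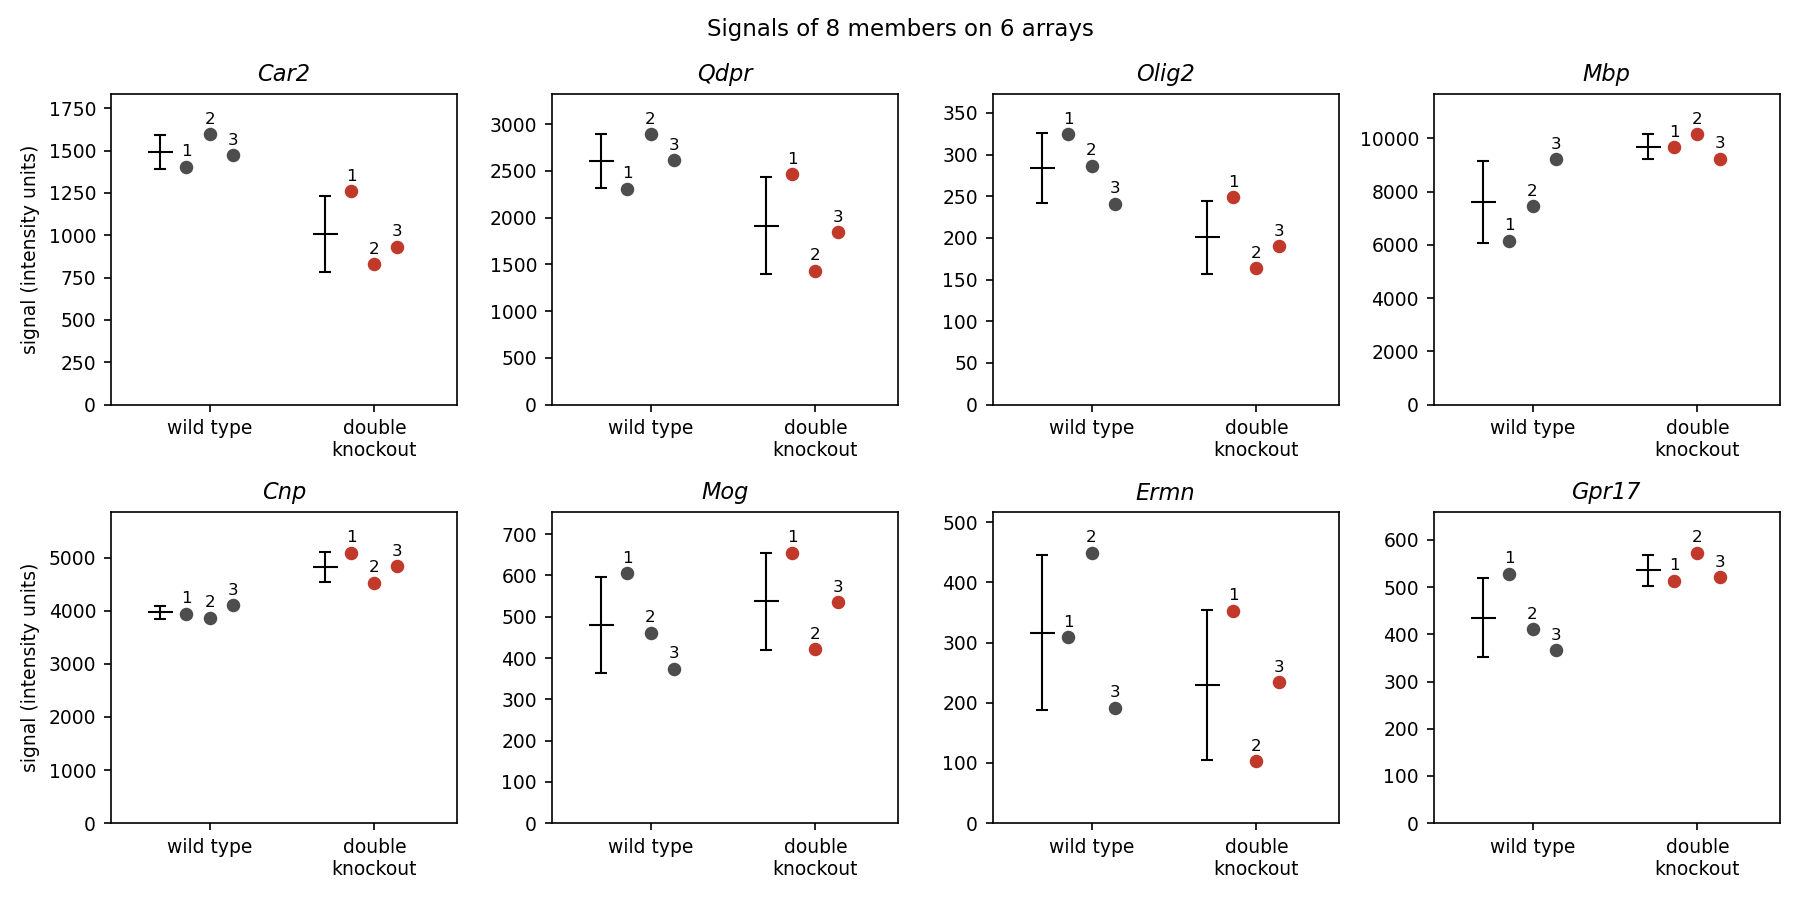
Signal in intensity units of 8 members at their brightest probe set; points are arrays, numbered by replicate, and the bars beside them give the mean and SD of 3 arrays. Car2 and Cnp separate the groups, Mog and Ermn span a common range, and Mbp separates them by a few units.

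Relative to the mature median of the same array, 4 of 30 members lay lower on every array labelled double knockout than on every wild type array, namely Car2 (-0.64 on average), Olig2 (-0.54), Qdpr (-0.53) and Ugt8a (-0.32). None lay higher on every array. Over all tested probe sets 6.63% separated downward on this measure and 1.99% upward, 8.62% in all. The median is itself made from mature members, so these values describe how the 4 genes stood to the rest of the set.

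Of 12 members with several tested probe sets, 5 had probe sets of both signs (Cspg4, Sox10, Mbp, Mobp and Gsn). Counted by probe set, 0 of 55 passed, 12 had an unadjusted limma p under 0.05 (16.6% of all tested probe sets did), and 9 separated the groups, 6 higher and 3 lower (22.3% of all did, 11.5% higher and 10.7% lower). Those 9 belonged to Mbp (5), Tspan2, Cnp, Qdpr and Car2. Where the probes lie in the transcripts was not analysed here.

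**Figure D4:**
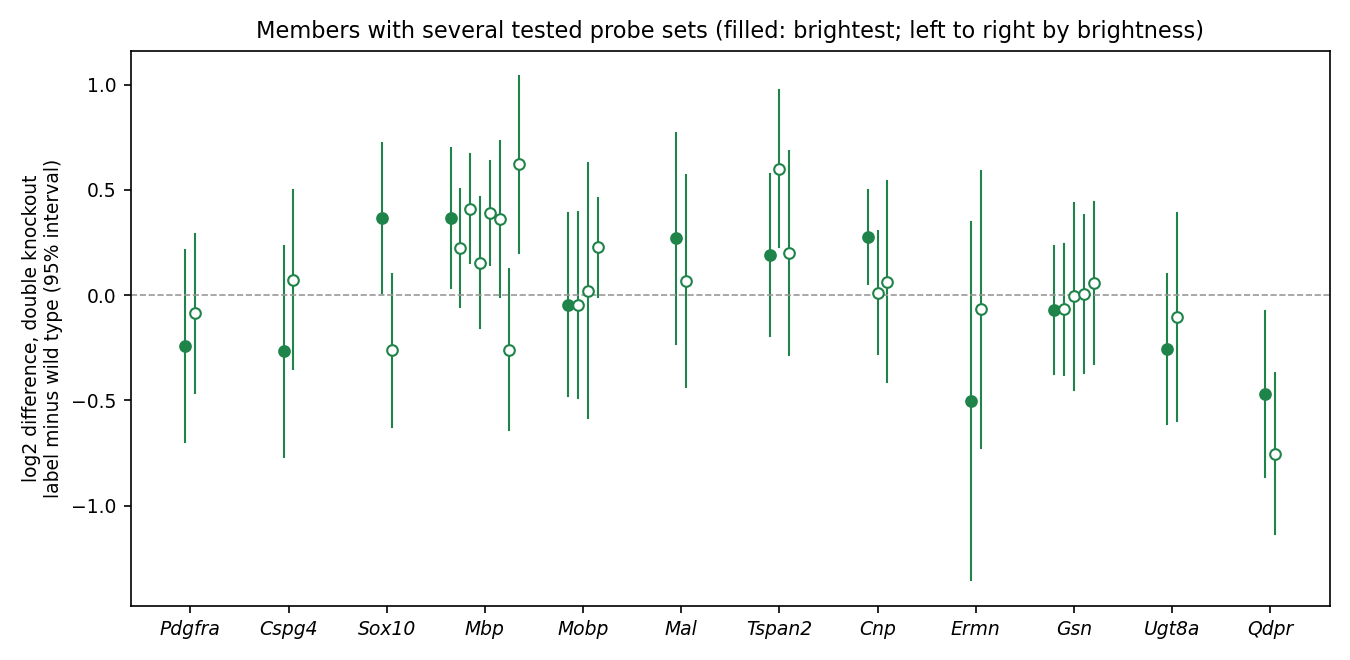
Log2 difference (double knockout label minus wild type) with 95% interval for every tested probe set of the 12 members that had several; filled points are the brightest, and probe sets run from brighter to dimmer. Qdpr lies below 0 on both (-0.47 and -0.75), Sox10 on both sides of 0 (0.37 and -0.26), and Mbp above 0 on 7 of 8.

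Further genes linked to the lineage, not all of them restricted to it, were read in the same way. Of 34 further mature genes 29 were tested and 0 passed at the brightest probe set in limma. Their median log2 difference was 0.06. An unadjusted limma p under 0.05 was reached by 5 of the 29, against 16.6% of all tested probe sets. Wild type replicate 3 was again the lowest of its group for 21 of 29, against 33.8% of all tested probe sets. Double knockout replicate 2 was the lowest of its group for 20 of 29, against 36.1%. These genes are read on the same arrays as the members, so the order is not an independent repeat. Apod, a lipid carrier, read 1234, 1212 and 1051 in wild type and 1690, 1309 and 1969 on the knockout-labelled arrays (log2 0.48, limma adjusted p = 0.147). A dimmer Apod probe set rose by 1.00 (adjusted p = 0.0470 in limma), where 1.02% of all tested probe sets passed in either direction. In wild type it read 36.1, 44.8 and 36.3, near the filter of about 36.6. On the knockout-labelled arrays it read 70.2, 93.5 and 124. Tmeff2, a transmembrane protein, read 947 to 1114 and 676 to 951 (log2 -0.40, adjusted p = 0.186 in limma).

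Of 22 further precursor and premyelinating genes 18 were tested, 1 fell and 17 did not pass (1.02% of all tested probe sets passed), with a median of 0.05. The one that fell was Chst11, which sulfates chondroitin and is not restricted to the lineage. It read 399, 356 and 354 in wild type and 210, 237 and 241 on the knockout-labelled arrays, well apart (log2 -0.65, SE 0.11, limma adjusted p = 0.0309). 

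In the lists for other cells, 1 of 12 astrocyte markers fell, where 1.02% of all tested probe sets passed in either direction. It was Aqp4, the water channel of astrocyte endfeet, which went from 967 ± 7.67 to 495 ± 100.3 (SD, n = 3 each). The log2 change was -0.96 (limma adjusted p = 0.0139). An unadjusted limma p under 0.05 was reached by 4 of the 12. In the meningeal list Mgp, a matrix protein, rose from 367 ± 17.4 to 825 ± 310 (SD, n = 3 each, log2 1.08, limma adjusted p = 0.0441). It was the only 1 of the 8 tested meningeal genes above 0, the other 7 lying below (median of the 8, -0.20). An unadjusted limma p under 0.05 was reached by 2 of the 8. Of the neuron, microglia, endothelial and mural, choroid plexus and striatum lists, and of the 1 tested gene of the Schwann cell list, 0 genes passed in limma. The count with an unadjusted limma p under 0.05 was 4 of 12, 7 of 12, 1 of 10, 0 of 5, 2 of 7 and 0 of 1. Over all tested probe sets that share was 16.6%. The smallest p of each list belonged to Nefh (log2 -0.68) and Rbfox3 (0.32), Laptm5 (-0.55) and P2ry12 (-0.72), Rgs5 (-0.63) and Flt1 (0.31), Clic6 (-0.61) and Kcnj13 (-0.70), Penk (-1.10) and Rgs9 (-0.50), and Egr2 (0.74).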

How the data were processed

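RNA of mouse cerebral cortex was measured on 6 Affymetrix arrays, 3 per group, and the groups were taken from the labels. The authors deposited 1 linear intensity per probe set, already scaled: the 2% trimmed mean was 150.0 on every array. For the software, the sources used here give no name. Scaling hides differences in total RNA, and precision is limited by having 3 arrays a group. Array medians lay between 36.2 and 39.5.

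Control probe sets (64) were left out, signals under 1 (4.35%) were set to 1, and log2(signal + 16) was taken. Symbols came from the platform annotation, with 1 symbol for 34945 probe sets, updated by gene number in a RefSeq table of GRCm38.p6; several-gene probe sets were not named. The 22518 probe sets with a mean log2 signal above the median (a signal of about 36.6) entered a limma fit (version 3.58.1, R 4.3.3; group only, intensity trend), two-sided, with Benjamini-Hochberg adjustment over all of them and a threshold of 0.05. The fit was tested on simulated data in which probe sets varied independently. That setting does not cover an array order shared by many genes, as read here. The brightest tested probe set stood for a gene; members below the filter are given as values. All members were to be named, and from other lists those past the threshold or the 2 with the smallest p. Members and lists were chosen with earlier results of these data known, and dimmer probe sets were singled out after their values were seen. Alternatives were other pseudocounts, normalizations, filters, trends and weights, averaged probe sets per gene, the replicate block and arrays left out. Plots used matplotlib 3.10.9 (Python 3.11.15).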

Additional observations from a re-analysis of the deposited data

How the results depend on the processing

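Leaving out each array in turn gave 33 to 300 called probe sets over the whole table in place of 229, 0 to 1 called members and 0 to 2 called member probe sets; the 1 member was Car2, without double knockout replicate 1. The mature median lay between -0.05 and 0.22, the precursor stage median between -0.04 and 0.08, their difference between -0.04 and 0.24 and the lineage factor median between 0.06 and 0.23. Of all probe sets, 131 passed with no intensity trend, 10 with no filter, and 9 with wild type replicate 1 and double knockout replicate 2 both left out; no member passed in these. Averaging the probe sets of each gene gave a lineage factor median of 0.053. The sign turned for Aspa with a pseudocount of 1 (-0.00069), and with the same 2 arrays left out for Bcas1 (0.03), Mobp (0.21), Plekhb1 (0.04) and Gsn (0.037). With arrays left out the log2 difference ran from -0.024 to 0.37 for Enpp6, -0.18 to 0.088 for Bcas1, -0.25 to 0.21 for Mobp, -0.11 to 0.33 for Cldn11, -0.30 to 0.11 for Plekhb1, -0.047 to 0.39 for Mag, -0.079 to 0.53 for Opalin, -0.21 to 0.037 for Gsn, -0.041 to 0.44 for Fa2h, -0.050 to 0.21 for Gal3st1 and -0.20 to 0.29 for Aspa, so these 11 genes have no settled direction. Without turning, single arrays left out moved Myrf between 0.06 and 0.64 (without wild type replicates 2 and 1), Mog between 0.0019 and 0.34 (wild type replicates 3 and 1), Mal between 0.11 and 0.58 (double knockout replicates 1 and 2), Pdgfra between -0.47 and -0.04 (wild type replicates 2 and 3) and Ermn between -0.87 and -0.06 (double knockout replicates 1 and 2). Quantile normalization lowered Mbp to 0.09 and Cnp to 0.10. The causes were not tested.

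The replicate block gave 182 called probe sets and 0 called members. The groups share only replicate numbers: deviations of same-numbered arrays correlated at -0.15, 0.0013 and -0.10. Members near the filter, such as Cspg4 and Enpp6, are limited by their low signal.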
